A study of Mus musculus with 30 samples.

Results

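*Prg4*, *Gdf5*, *Erg* and *Creb5*, 4 of the 55416 genes counted, were followed through fracture healing in the mouse tibia with and without *Apex1* in the limb mesenchyme. They were selected by name as genes of the articular surface and its superficial zone. *Prg4* was chosen by a measured value, its higher level in knockout than in WT callus at 6 days post-fracture (dpf). Its values at 6-dpf are therefore described here without a test. Fracture callus of 30 mice was sequenced: 4 WT and 4 P-Apex1KO mice at 3-dpf, 5 WT and 3 P-Apex1KO mice at 6-dpf, 4 WT and 3 P-Apex1KO mice at 10-dpf, and 4 WT and 3 P-Apex1KO mice at 14-dpf. All mice had a closed, non-stabilized fracture of the tibia made at 7 to 12 weeks of age. P-Apex1KO mice carried Prrx1-Cre and 2 floxed *Apex1* alleles (Prrx1-Cre+;Apex1C/C). WT littermates were Prrx1-Cre+/-;Apex1C/+, Apex1C/C or Apex1C/+, so controls also carried floxed alleles and could carry the Cre. Prrx1-Cre acts in limb bud mesenchyme, so blood, endothelial and other cells outside that lineage are not its targets. *Apex1* was not measured by cell type in the callus. Every sample is labelled fracture callus. The study describes tissue cut out around the break at 3-dpf and the whole callus at 6-dpf, so dissection and time cannot be told apart in the changes between them. In such bulk tissue fewer cells of a type and less RNA per cell cannot be told apart either.

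The surface of a joint is covered by cartilage whose uppermost cells secrete lubricin, the product of *Prg4*, a proteoglycan that lets the surfaces slide, and the lining cells of the synovium secrete it as well. In the embryo these cells descend from the joint interzone, which is marked by the BMP family ligand GDF5. ERG is an ETS transcription factor that keeps articular chondrocytes from becoming hypertrophic, and it is also made by endothelial cells and megakaryocytes. CREB5 is a bZIP transcription factor of the CREB and ATF family that is needed for *Prg4* expression in superficial zone chondrocytes. A fracture callus has no joint surface, and it forms cartilage that is replaced by bone.

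The *Prg4* gene (ENSMUSG00000006014) lies on chromosome 1 of GRCm39 from 150325163 to 150342009 on the minus strand. *Gdf5* (ENSMUSG00000038259) lies on chromosome 2 from 155782943 to 155787287 on the minus strand. *Erg* (ENSMUSG00000040732) lies on chromosome 16 from 95160028 to 95387452 on the minus strand. *Creb5* (ENSMUSG00000053007) lies on chromosome 6 from 53264255 to 53677361 on the plus strand. The 300 bases before the start of the main transcript were read for each gene and searched on both strands for TGACGTCA, the full palindromic site that CREB and ATF factors bind, for its shorter form TGACG, for the AP-1 site TGACTCA, and for the ETS site CCGGAAGT. TGACG lies within TGACGTCA. The windows of *Prg4* and *Creb5* are shown, the gene of lubricin and that of the factor it needs, at chr1:150342010-150342309 on the minus strand and chr6:53263955-53264254 on the plus strand. Both run 5′ to 3′ toward the start, with motif matches in capitals.

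Prg4: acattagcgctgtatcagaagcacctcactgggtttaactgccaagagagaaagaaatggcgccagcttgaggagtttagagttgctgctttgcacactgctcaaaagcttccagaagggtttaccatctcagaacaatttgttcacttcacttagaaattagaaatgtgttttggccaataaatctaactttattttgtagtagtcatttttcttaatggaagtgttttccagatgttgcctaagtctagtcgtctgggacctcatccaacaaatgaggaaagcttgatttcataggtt

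Creb5: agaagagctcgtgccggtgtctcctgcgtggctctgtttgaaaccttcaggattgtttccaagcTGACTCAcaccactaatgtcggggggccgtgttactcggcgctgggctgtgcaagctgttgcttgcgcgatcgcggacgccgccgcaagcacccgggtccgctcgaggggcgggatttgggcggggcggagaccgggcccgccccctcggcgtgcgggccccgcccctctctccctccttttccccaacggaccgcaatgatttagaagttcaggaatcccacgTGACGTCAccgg

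The *Creb5* window held TGACGTCA with its first base 12 bases before the start, a motif present in 1.75% of the 21770 promoter windows of protein-coding genes, and TGACTCA 236 bases before it, present in 4.74%. TGACG, found in 19.9% of the windows, occurred in *Creb5* only as part of TGACGTCA, on both strands. CCGGAAGT was found in 2.75% of the windows. None of these letters occurred in the windows of *Prg4*, *Gdf5* and *Erg*, which says nothing about binding elsewhere. GC content was 65% in the *Creb5* window, 48.3% in that of *Erg*, 41% in that of *Gdf5* and 39.7% in that of *Prg4*, against a median of 52.3% over all windows.

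Between 18334389 and 43111491 reads per library were counted on genes. Levels are normalized counts scaled to library size (CPM) and differences are log2 fold changes from a model with sex, each with its standard error (SE). *Apex1* itself was lower in P-Apex1KO callus at 6-dpf (log2 fold change -0.67, adjusted p = 0.00710) and 10-dpf (-0.65, adjusted p = 0.0278). At 14-dpf it was -0.29 with sex in the model (adjusted p = 0.367) and -0.55 without it (adjusted p = 0.0187), and the genotypes did not overlap. At 3-dpf *Apex1* did not separate the groups (-0.15, adjusted p = 0.927), and the library labelled P-Apex1KO replicate 4, at 34.5 CPM, held more than any WT library of that time point. The 3-dpf libraries are therefore called by their labels. All 3 P-Apex1KO mice at 14-dpf were female and 1 of the 4 WT mice was, replicate 1, so the difference adjusted for sex at 14-dpf rests on that mouse. Without that mouse genotype and sex coincide, so 14-dpf fits that leave it out have no sex term and cannot tell them apart. At 14-dpf the fit of all mice without the sex term also mixes sex with genotype in part, and it called more genes.

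*Prg4* started high in every 3-dpf callus and fell in WT, while P-Apex1KO callus held more of it at 6-dpf and 14-dpf. At 3-dpf the WT libraries had 165, 104, 103 and 236 CPM and the libraries labelled P-Apex1KO 258, 307, 151 and 122 CPM. The ranges overlapped, and the log2 fold change was 0.32 with a SE of 0.28 (adjusted p = 0.899). No gene passed an adjusted p of 0.05 at 3-dpf under edgeR's quasi-likelihood test (0% of the 19866 tested), while 1216 reached an unadjusted p below 0.05, with *Prg4*, *Gdf5*, *Erg* and *Creb5* not among them, and 85 passed under DESeq2.

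At 6-dpf *Prg4* was 24.2, 14.7, 22.8, 21.2 and 19.4 CPM in the WT mice and 307, 133 and 44.6 CPM in the P-Apex1KO mice. Every P-Apex1KO mouse was above every WT mouse, as for 8.71% of all genes, and the P-Apex1KO mice differed among themselves far more than the WT mice did. The log2 fold change was 3.03 with a SE of 0.39, an 8.18-fold difference, which the choice of the gene used and which is given without a test. Without P-Apex1KO replicate 1, the mouse at 307 CPM, it was 2.34. From 3- to 6-dpf *Prg4* changed by -2.95 on the log2 scale in WT (SE 0.48) and by -0.42 in P-Apex1KO (SE 0.54), also given without a test.

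At 10-dpf 3 of the 4 WT mice held almost no *Prg4*, at 1.67, 2.56 and 2.47 CPM, and WT replicate 3 held 30.7 CPM, 12.0-fold more than the next. The P-Apex1KO mice had 8.79, 30.9 and 13.3 CPM, all above the 3 low WT mice and none clear of replicate 3. The log2 fold change was 0.99 with a SE of 0.82 (adjusted p = 0.525). Without WT replicate 3 it was 2.61 (adjusted p = 0.0336), so that 1 mouse decided the call. The same mouse was the highest of its group for *Gdf5*, *Erg* and *Creb5*, and it had the highest summed levels of the marker lists for growth plate cartilage (52967 CPM, against 20816 to 30293 CPM in the other WT mice) and tendon (5580.6 CPM, against 3441.8 to 4175.1 CPM). Their part in its *Prg4* level was not tested.

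At 14-dpf the WT mice had 4.77, 10.6, 7.37 and 6.38 CPM and the P-Apex1KO mice 24.8, 47.1 and 17.0 CPM. Every P-Apex1KO mouse was above every WT mouse, as for 18.5% of all genes at this time point. *Prg4* was 6.33-fold higher in P-Apex1KO (log2 fold change 2.66, SE 0.66, adjusted p = 0.0466), at a time point where 11.3% of the 20228 genes tested passed. Without the sex term the log2 fold change was 2.07 (adjusted p = 0.00587), in a fit that called more genes and mixes sex with genotype in part. With 1 mouse left out it stayed between 1.92 and 2.94, and in 4 of 7 such fits the adjusted p rose above 0.05, to at most 0.0812 (without WT replicate 2, 3 or 4 or P-Apex1KO replicate 1). Without a filter on low counts the adjusted p was 0.192. From 10- to 14-dpf *Prg4* changed by -0.39 in WT (adjusted p = 0.792) and by 2.03 in P-Apex1KO (adjusted p = 0.336), and the change of the genotype difference did not pass (2.42, adjusted p = 0.398).

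**Figure D1:**
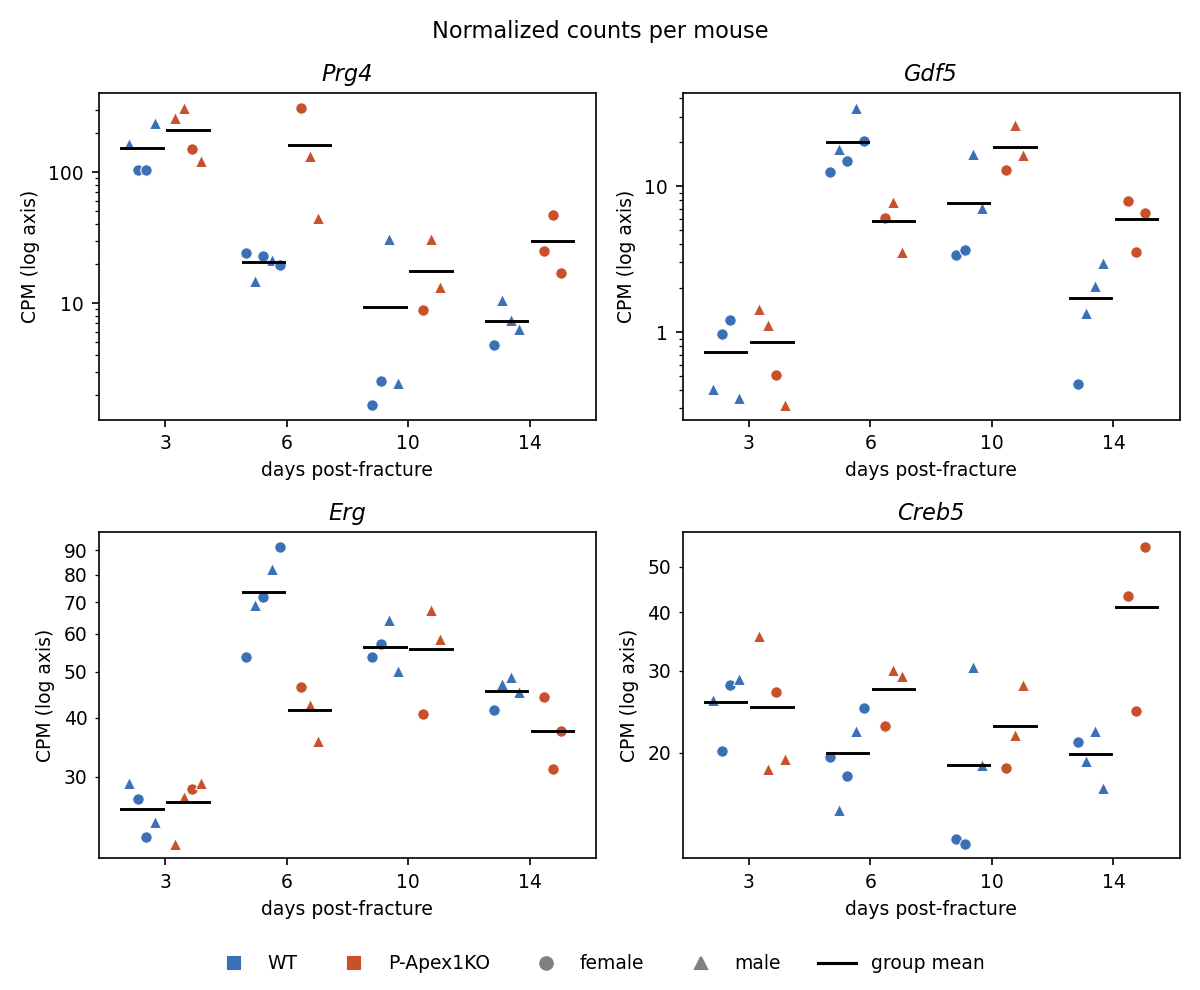
Normalized counts of *Prg4*, *Gdf5*, *Erg* and *Creb5* in each mouse (CPM, log axis) against days post-fracture, with WT in blue and P-Apex1KO in orange, circles for females, triangles for males and black bars for group means. *Prg4* in WT fell from a mean of 152 CPM at 3-dpf to 20.5 CPM at 6-dpf while P-Apex1KO had means of 209 and 161 CPM, and *Gdf5* in P-Apex1KO lay below all WT mice at 6-dpf and above them at 14-dpf.

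Lining cells of the synovium secrete lubricin and macrophages are known neighbours of them in the joint, so markers of both were read beside *Prg4*. Of 11 synovial lining genes tested at 6-dpf, 6 were higher and 1 was lower in P-Apex1KO, where 10.9% of the 20260 genes tested passed, and the median log2 fold change was 0.49 against 0.01 over all genes. *Has1*, a hyaluronan synthase, was higher than in WT by 2.11 (adjusted p = 0.00205), and *Htra4*, a secreted serine protease, by 2.09 (adjusted p = 0.0222). *Ugdh*, which makes the sugar precursor of hyaluronan, was lower than in WT by 1.12 (adjusted p = 0.00235). The summed level of the list did not follow the count: it was 818.85 to 1049.3 CPM in P-Apex1KO and 993.44 to 1159.3 CPM in WT. At 14-dpf, where 11.3% of all genes passed, 2 of the 11 genes were higher, *Htra4* (1.95, adjusted p = 0.0162) and *Cd55* (0.99, adjusted p = 0.00339), and *Cdh11*, the cadherin of lining fibroblasts, was lower (-1.25, adjusted p = 0.00552). Both without WT replicate 1 and without the sex term 4 were higher and 2 lower. At 10-dpf, where 6.46% of all genes passed, *Vcam1*, an adhesion molecule of lining cells, alone did (0.65, adjusted p = 0.0173). The summed muscle level at 14-dpf, when *Prg4* was again higher, was 3768.6 to 13577 CPM in P-Apex1KO and 1514.5 to 5495.3 CPM in WT, with 0 of 12 muscle genes called with all mice and 12 higher without WT replicate 1. Of 11 macrophage genes at 14-dpf 7 were higher and 2 lower (median 1.02). The mean log2 CPM of that list was 5.40 to 5.66 in P-Apex1KO and 4.62 to 4.80 in WT, while its summed level overlapped, at 1039.8 to 1198.7 CPM and 1039.5 to 1219.5 CPM. *Timd4*, a receptor of resident macrophages (1.82, adjusted p = 0.0191), and *C1qa* (1.29, adjusted p = 0.0314) led the higher genes, and the lower ones were *Cd68*, a lysosomal protein (-1.38, adjusted p = 0.00184), and *Csf1r*, the receptor for macrophage growth factor (-1.12, adjusted p = 0.00113). The part of these cells in the *Prg4* difference at 14-dpf was not tested.

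Markers of other tissues differed between genotypes at 6-dpf as well, where 10.9% of all genes passed. Of 11 macrophage genes 10 were higher in P-Apex1KO (median 0.80), led by *Vsig4* (2.15, adjusted p = 0.00805), and their summed level was 1284.8 to 1484.1 CPM in P-Apex1KO and 705.53 to 922.9 CPM in WT. Of 12 skeletal muscle genes 11 were higher (median 1.46), with summed levels of 8589.6, 19830 and 12309 CPM in P-Apex1KO replicates 1, 2 and 3 and 3616.7 to 6667.1 CPM in WT. The P-Apex1KO mouse with the most *Prg4*, replicate 1, had the lowest levels of both lists in its group. An order among 3 mice cannot decide where the *Prg4* came from. Over all 30 libraries *C1qa* and *C1qb* of the macrophage list were among the 10 genes most like *Prg4* (Pearson's r = 0.92 each). The part of muscle and macrophage RNA in the *Prg4* difference was not tested. Of 10 tendon and ligament genes 1 was higher and 1 was lower, and of 10 osteoblast genes 9 were lower (median -1.14). Of 9 genes that encode receptors and regulators of lubricin, *Tlr2* (0.69, adjusted p = 0.00384) and *Tlr4* (0.37, adjusted p = 0.0437), innate immune receptors that lubricin binds, were higher at 6-dpf and none was lower. *Tlr2* was also higher at 10-dpf (0.72, adjusted p = 0.0151) and 14-dpf (0.66, adjusted p = 0.0448), where *Tgfb1*, a growth factor that induces lubricin, was lower (-0.68, adjusted p = 0.0137). Of all genes 6.46% passed at 10-dpf and 11.3% at 14-dpf. Without WT replicate 1 the 14-dpf counts were 4 higher and 2 lower.

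Over all 30 libraries the protein-coding genes whose log2 CPM was most like that of *Prg4* were *Mgst1* (Pearson's r = 0.93), *Glipr2*, *Ctss*, *Tnfaip8l2* and *Sting1* (r = 0.92). With the group means removed they were *Htra4* of the synovial lining list (r = 0.80), *Vsig4* of the macrophage list (r = 0.79), *Prelp*, *Shisa5* and *Angptl7* (r = 0.73). These libraries share time points and genotypes, and the correlations are descriptions over 13794 genes at 1 CPM or more on average.

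*Gdf5* was the gene whose genotype difference pointed both ways. It was lower in P-Apex1KO at 6-dpf and higher at 14-dpf, with no overlap between genotypes at either time. At 3-dpf it was barely expressed, at 0.409, 0.971, 1.20 and 0.352 CPM in WT and 1.45, 1.12, 0.510 and 0.318 CPM in the libraries labelled P-Apex1KO, which is 9 to 46 reads per library. A difference between genotypes was not detectable at this depth (0.51, SE 0.65, adjusted p = 0.929).

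At 6-dpf *Gdf5* had risen to 12.5, 18.1, 14.8, 34.1 and 20.4 CPM in WT and to 6.08, 7.75 and 3.52 CPM in P-Apex1KO. All 3 P-Apex1KO mice lay below all 5 WT mice, as for 11.9% of genes. The level was 3.54-fold lower in P-Apex1KO (log2 fold change -1.82, SE 0.34, adjusted p = 0.0114) and stayed between -2.18 and -1.51 with 1 mouse left out, past the threshold each time. Without a filter on low counts the adjusted p was 0.0755. The rise from 3- to 6-dpf was 4.76 in WT (SE 0.51, adjusted p = 1.26e-05), where 30.5% of 20468 genes passed, and 2.78 in P-Apex1KO (SE 0.51, adjusted p = 0.00332), where 14% passed. The rises were not shown to differ between genotypes (-1.98, SE 0.71, adjusted p = 0.240), in a test that 1.3% of genes passed.

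At 10-dpf the order had turned, with 3.40, 3.65, 16.6 and 7.13 CPM in WT and 13.0, 26.4 and 16.3 CPM in P-Apex1KO. WT replicate 3 reached into the P-Apex1KO range. The log2 fold change was 1.25 with a SE of 0.37 and did not pass (adjusted p = 0.0970), at a time point where 6.46% of 18910 genes did. Without WT replicate 3 it was 1.74 (adjusted p = 0.00442).

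At 14-dpf the WT mice had 0.438, 1.35, 2.08 and 2.97 CPM and the P-Apex1KO mice 7.94, 3.56 and 6.51 CPM. Each P-Apex1KO mouse was above each WT mouse, by 1.20-fold at the nearest pair, as 18.5% of all genes were. The means differed 3.52-fold, and 11.3% of all genes passed the test. Adjusted for sex the log2 fold change was 3.79 (SE 0.72, adjusted p = 0.0158). The only WT female was the lowest mouse, with 9 *Gdf5* reads, and the WT males had 29, 42 and 68. Without the sex term, in a fit that called more genes, the log2 fold change was 1.84 (adjusted p = 0.0257). Without that mouse, where genotype and sex coincide, it was 1.54 (adjusted p = 0.0183). From 10- to 14-dpf *Gdf5* fell by 2.46 in WT (adjusted p = 0.00281), where 11.1% of 19705 genes passed. In P-Apex1KO the change was -0.66 (adjusted p = 0.547), where 0.259% passed. The change of the genotype difference was 1.80 and did not pass (adjusted p = 0.255), in a test that 0.436% of genes passed.

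**Figure D2:**
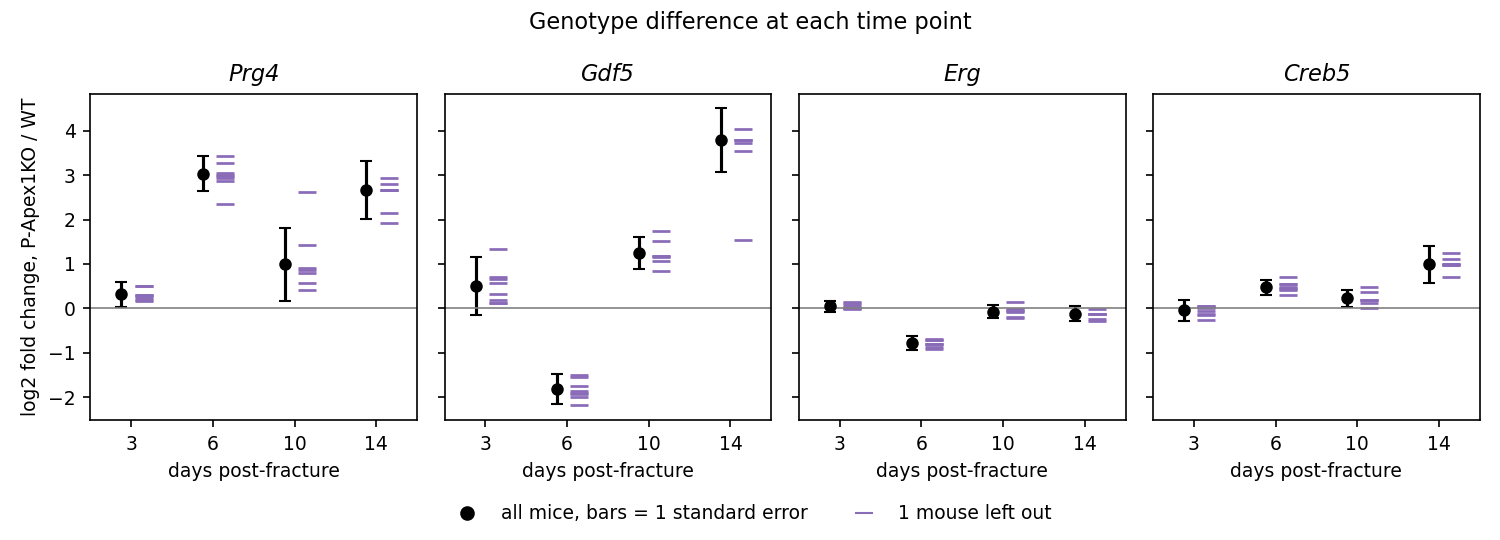
Log2 fold change of P-Apex1KO over WT against days post-fracture for each gene, with black points for all mice, bars of 1 standard error, and purple dashes for the fits with 1 mouse left out. *Gdf5* lies at -1.82 at 6-dpf and 3.79 at 14-dpf, where the lone low dash at 1.54 is the fit without the WT female, and *Prg4* at 10-dpf moves from 0.99 to 2.61 without WT replicate 3.

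*Gdf5* was read beside the growth plate cartilage list, since callus chondrocytes and their progenitors express it. At 6-dpf, where 10.9% of all genes passed, all 17 cartilage genes were lower in P-Apex1KO. Their median log2 fold change was -2.97, with summed levels of 3291.1 to 6345 CPM against 37410 to 66535 CPM in WT. *Gdf5*, at -1.82, lay beside the genes of the list with the smallest genotype differences. They were *Sox9*, the master regulator of chondrocytes (-1.83, adjusted p = 0.00589), and *Epyc* (-1.65, adjusted p = 0.0166), both named after their values were seen. The log2 level of *Gdf5* minus the mean of the list was -4.53, -3.52 and -4.10 in P-Apex1KO and -5.54, -5.58, -5.61, -4.57 and -5.66 in WT, and each P-Apex1KO mouse lay above each WT mouse. The nearest pair, at -4.53 and -4.57, almost touched. The difference of 1.34 gave a p of 0.0179 in a two-sided exact permutation test over mice, the smallest that 3 against 5 mice allow, and 0.0714 adjusted over the 4 time points. At 10-dpf the difference was 1.48 (exact permutation p = 0.0571, adjusted p = 0.114), at 14-dpf 0.82 (exact permutation p = 0.114, adjusted p = 0.152) and at 3-dpf 0.67 (exact permutation p = 0.40). With 3 against 4 mice the smallest possible p was 0.0286. These permutation tests held no sex term, so the one at 14-dpf mixes sex with genotype in part.

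At 14-dpf, where 11.3% of all genes passed, 15 of the 17 cartilage genes were called higher in P-Apex1KO and 2 lower. That count moved with the WT female, whose summed level was 4754.1 CPM against 7941.1 to 9828.9 CPM in the WT males and 6457.7 to 7585.6 CPM in P-Apex1KO. Without her 9 were higher and 2 lower, and a fit of all mice with genotype alone called 4 higher and 2 lower.

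**Figure D3:**
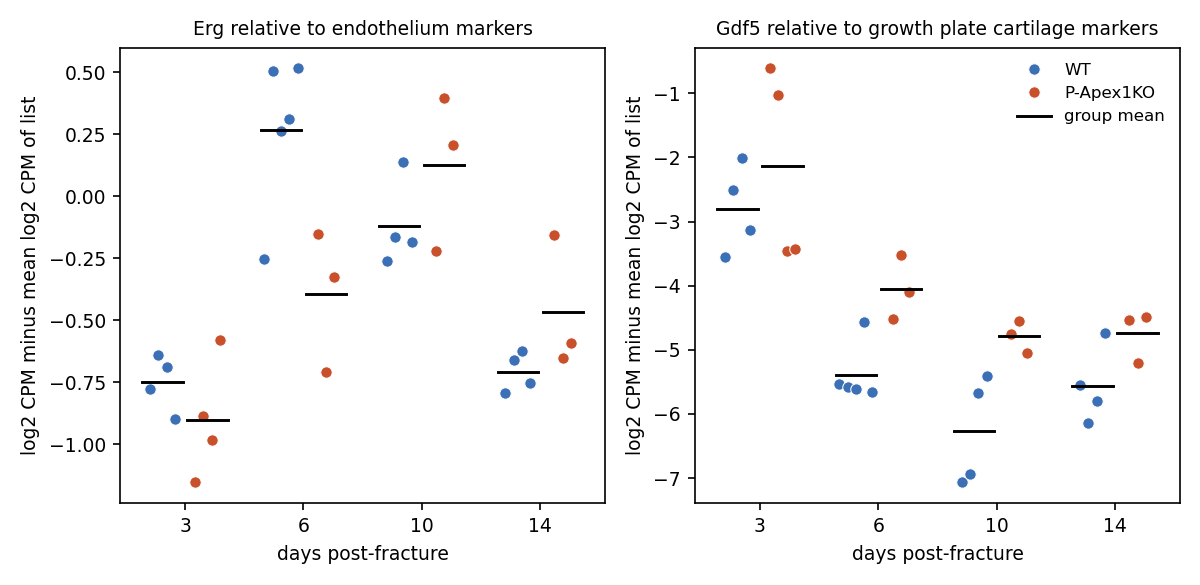
Log2 CPM of *Erg* minus the mean log2 CPM of 17 endothelial markers (left) and of *Gdf5* minus that of 17 growth plate cartilage markers (right) in each mouse, by days post-fracture, with black bars for group means. At 6-dpf *Erg* relative to endothelium averaged -0.40 in P-Apex1KO and 0.27 in WT with overlap, and *Gdf5* relative to cartilage was higher in all 3 P-Apex1KO mice than in all 5 WT mice, though the nearest pair almost touched.

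The other joint interzone and articular cartilage genes were called in both directions, at 6-dpf in a share near that of all genes (10.9%). Of 19 tested at 6-dpf, *Gdf6*, a GDF5 paralog, was higher (1.64, adjusted p = 0.0354, from a WT mean of 0.263 CPM), and *Nog*, an extracellular BMP antagonist (-0.81, adjusted p = 0.0131), and *Col22a1*, a collagen of tissue junctions (-1.32, adjusted p = 0.0192), were lower. The median of the list was -0.16. At 10-dpf and 14-dpf, where 6.46% and 11.3% of all genes passed, 1 was higher and 3 were lower at each time: *Clu*, which encodes the secreted chaperone clusterin, was higher (0.84, adjusted p = 0.0283, and 1.06, adjusted p = 0.0367), and *Col22a1* (-1.58, adjusted p = 0.0177, and -2.48, adjusted p = 0.0185) and *Wnt4* (-1.34, adjusted p = 0.00608, and -1.30, adjusted p = 0.00313) led the lower ones, with *Nfatc1* (-0.68, adjusted p = 0.0291, and -0.88, adjusted p = 0.0143). With genotype alone in the model the 14-dpf counts were 8 higher and 3 lower, and without WT replicate 1 they were 7 and 3.

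Genes of the GDF5 signal, which passes through BMPR1B and other BMP receptors to SMAD1, SMAD5 and SMAD9 and induces the *Id* genes, were mostly lower where they passed. At 6-dpf, where 10.9% of all genes passed, the receptor *Bmpr1b* was higher (0.56, adjusted p = 0.0253). The targets *Id1* (-0.59, adjusted p = 0.00454) and *Id3* and the antagonist *Nog* were lower, 3 of 15 in all. At 10-dpf, where 6.46% of all genes passed, *Smad9* (-1.39, adjusted p = 0.0245) and *Id3* (-0.65, adjusted p = 0.0368) were lower and none was higher. At 14-dpf, where 11.3% of all genes passed, 6 of 15 were lower and none was higher. They were led by *Smad9* (-2.36, adjusted p = 0.00123) and *Id3* (-1.81, adjusted p = 0.000867), at the time when *Gdf5* was higher in P-Apex1KO. A link of these genes to the *Gdf5* level was not tested. With genotype alone 9 were lower and 3 higher, and without WT replicate 1 7 were lower and 3 higher.

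The genes most like *Gdf5* over all libraries were *Moxd1* (r = 0.95), *Sox8*, *Usp29*, *Kcna6* and *Anxa8* (r = 0.93). With the group means removed they were *Ccn2*, the connective tissue growth factor (r = 0.77), *Timm22*, *Arhgdig*, *Cela1* and *Cyth3* (r = 0.74).

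*Erg* passed the test between genotypes at 6-dpf and at no other time. At 3-dpf it was 29.1, 27.0, 22.4 and 24.2 CPM in WT and 21.7, 27.2, 28.3 and 29.1 CPM in the libraries labelled P-Apex1KO, with a log2 fold change of 0.05 (SE 0.12, adjusted p = 0.972). At 6-dpf the WT mice had 53.6, 68.9, 71.7, 82.3 and 91.4 CPM and the P-Apex1KO mice 46.4, 42.5 and 35.7 CPM. The P-Apex1KO mice were all below the WT mice, though the highest of them was close to WT replicate 1. Of all genes 11.9% lay below in this way and 10.9% passed the test. *Erg* was 1.72-fold lower (log2 fold change -0.79, SE 0.16, adjusted p = 0.0170). With 1 mouse left out it stayed between -0.92 and -0.70, with an adjusted p of 0.00412 to 0.0646, above 0.05 in 3 of 8 fits (without WT replicate 2, WT replicate 4 or P-Apex1KO replicate 3).

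*Erg* rose from 3- to 6-dpf by 1.48 in WT (SE 0.14, adjusted p = 2.12e-06) and by 0.65 in P-Apex1KO (SE 0.15, adjusted p = 0.0113). The smaller rise in P-Apex1KO missed the threshold as a difference (-0.83, SE 0.21, adjusted p = 0.0640). It passed in DESeq2's test (-0.86, adjusted p = 0.00929), where all libraries stood in 1 model (-0.87, adjusted p = 0.0323) and without a filter on low counts (-0.84, adjusted p = 0.0486). At 10-dpf *Erg* was 53.8, 57.0, 64.3 and 50.2 CPM in WT and 40.8, 67.5 and 58.6 CPM in P-Apex1KO, and at 14-dpf 41.6, 47.0, 48.6 and 45.2 CPM against 44.1, 31.1 and 37.5 CPM. The genotypes overlapped at both times, with log2 fold changes of -0.07 (SE 0.14, adjusted p = 0.806) and -0.12 (SE 0.17, adjusted p = 0.691).

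Because endothelial cells make *Erg*, it was compared with 17 endothelial markers. None of them passed at 6-dpf in either direction (median -0.11), where 10.9% of all genes did. Their summed level was 1027.5 to 1596.4 CPM in P-Apex1KO and 1090.6 to 1533.7 CPM in WT. *Erg* relative to the list was -0.15, -0.71 and -0.33 in P-Apex1KO and -0.26, 0.50, 0.26, 0.31 and 0.51 in WT. The means differed by -0.66, with WT replicate 1 inside the P-Apex1KO range (two-sided exact permutation p = 0.0536, adjusted p = 0.114). At 14-dpf 8 of the 17 endothelial genes were lower in P-Apex1KO, against 11.3% of all genes called in either direction, and 13 were lower without WT replicate 1 and without the sex term. They were led by the transcription factor *Sox18* (-1.19, adjusted p = 0.00620) and the junction protein *Cldn5* (-1.01, adjusted p = 0.00792), and *Vwf*, which platelets and their precursors also make, was higher (1.11, adjusted p = 0.0127). *Erg* relative to the list then differed by 0.24 (exact permutation p = 0.0571, adjusted p = 0.114). At 10-dpf, where 6.46% of all genes passed, *Cdh5* (-0.55, adjusted p = 0.0329) and *Flt1* (-0.47, adjusted p = 0.0296) were lower. *Erg* relative to the list differed there by 0.24 as well (exact permutation p = 0.229). These permutation tests too held no sex term, so the one at 14-dpf mixes sex with genotype in part.

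Megakaryocytes express *Erg* as well. Over all genes 10.9% passed at 6-dpf, 6.46% at 10-dpf and 11.3% at 14-dpf, the shares to set beside the counts that follow. None of 8 megakaryocyte genes passed at 6-dpf (median 0.20) and 5 were higher at 14-dpf (median 1.27), with summed levels of 370.87 to 497.5 CPM in P-Apex1KO and 173.42 to 220.37 CPM in WT. The part of these cells in the level of *Erg* was not tested. Of 9 other ETS family genes tested, *Ets1*, an endothelial and lymphoid factor, was lower at 6-dpf (-0.33, adjusted p = 0.0315). *Elf1* was higher at 6-dpf (0.35, adjusted p = 0.0452), 10-dpf (0.38, adjusted p = 0.0243) and 14-dpf (0.52, adjusted p = 0.0418). *Etv4* was lower at 10-dpf (-0.77, adjusted p = 0.0497) and *Elk3* at 14-dpf (-0.67, adjusted p = 0.0250), where 3 were lower without WT replicate 1.

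The genes most like *Erg* over all libraries were *D630045J12Rik* (r = 0.96), *Fgfr3*, a receptor of proliferating chondrocytes, *Cspg4*, *Acot11* and *Chsy3* (r = 0.95). With the group means removed they were *Tmem167b* (r = 0.88), *Dap*, *Clint1*, *1110004F10Rik* and *Slc26a2*, the sulfate transporter of cartilage (r = 0.84).

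*Creb5* passed the main test at no time point, and its highest mean level was in P-Apex1KO callus at 14-dpf. At 3-dpf it was 26.0, 20.2, 28.0 and 28.8 CPM in WT and 35.6, 18.5, 26.9 and 19.4 CPM in the libraries labelled P-Apex1KO (log2 fold change -0.04, SE 0.24, adjusted p = 0.984). At 6-dpf it was 19.6, 15.1, 17.9, 22.3 and 24.9 CPM in WT and 22.8, 30.1 and 29.3 CPM in P-Apex1KO. Of the P-Apex1KO mice 2 were above all WT mice, and the log2 fold change of 0.48 (SE 0.17) did not pass (adjusted p = 0.107). Scaled by library size alone it was 0.67 and passed (adjusted p = 0.0184). At 10-dpf the ranges overlapped, with 13.1, 12.8, 30.5 and 18.9 CPM in WT and 18.6, 21.8 and 28.0 CPM in P-Apex1KO (0.22, SE 0.19, adjusted p = 0.543).

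At 14-dpf the WT mice had 21.1, 19.2, 22.3 and 16.8 CPM and the P-Apex1KO mice 43.4, 24.6 and 55.1 CPM. All 3 P-Apex1KO mice were above the WT mice, as for 18.5% of all genes, and the means differed 2.07-fold. Adjusted for sex the log2 fold change was 0.99 (SE 0.42) and did not pass (adjusted p = 0.179). Without the sex term, where 6849 genes passed in place of 2289, it was 1.09 and passed (adjusted p = 0.0108). The WT female had 21.1 CPM, within the range of the WT males. From 10- to 14-dpf *Creb5* changed by 0.02 in WT (adjusted p = 0.980) and by 1.16 in P-Apex1KO (adjusted p = 0.166), a change of the genotype difference of 1.15 (SE 0.44, adjusted p = 0.294).

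Related bZIP genes were read as well, 12 in all, CREB and ATF family members and the AP-1 genes *Jun* and *Fos*. At 6-dpf, where 10.9% of all genes passed, none was higher and 3 were lower. These were *Creb3l2*, which controls secretory capacity in chondrocytes (-1.20, adjusted p = 0.00388), *Creb3* (-0.46, adjusted p = 0.0420) and the stress factor *Atf4*. *Creb3l1*, a regulator of collagen secretion in osteoblasts, was lower at 10-dpf (-0.98, adjusted p = 0.0207), where 6.46% of all genes passed, and at 14-dpf (-1.76, adjusted p = 0.00620). At 14-dpf *Atf3*, a stress-induced factor (1.20, adjusted p = 0.0290), and *Crem* (0.57, adjusted p = 0.0462) were higher and *Creb3* was lower (-0.56, adjusted p = 0.0352), 2 in each direction at a time point where 11.3% of all genes passed. Without WT replicate 1 there were 1 higher and 5 lower, and without the sex term 1 higher and 4 lower. The genes most like *Creb5* over all libraries were *Tmod2* (r = 0.85), *Npy1r*, *Nova1*, *Tnxb*, which encodes the connective tissue glycoprotein tenascin-X, and *Osbpl3* (r = 0.77). With the group means removed they were *Duox1* (r = 0.89), *Mab21l1*, *Tmod2*, *Rab23* and the microfibril gene *Mfap5* (r = 0.86).

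**Figure D4:**
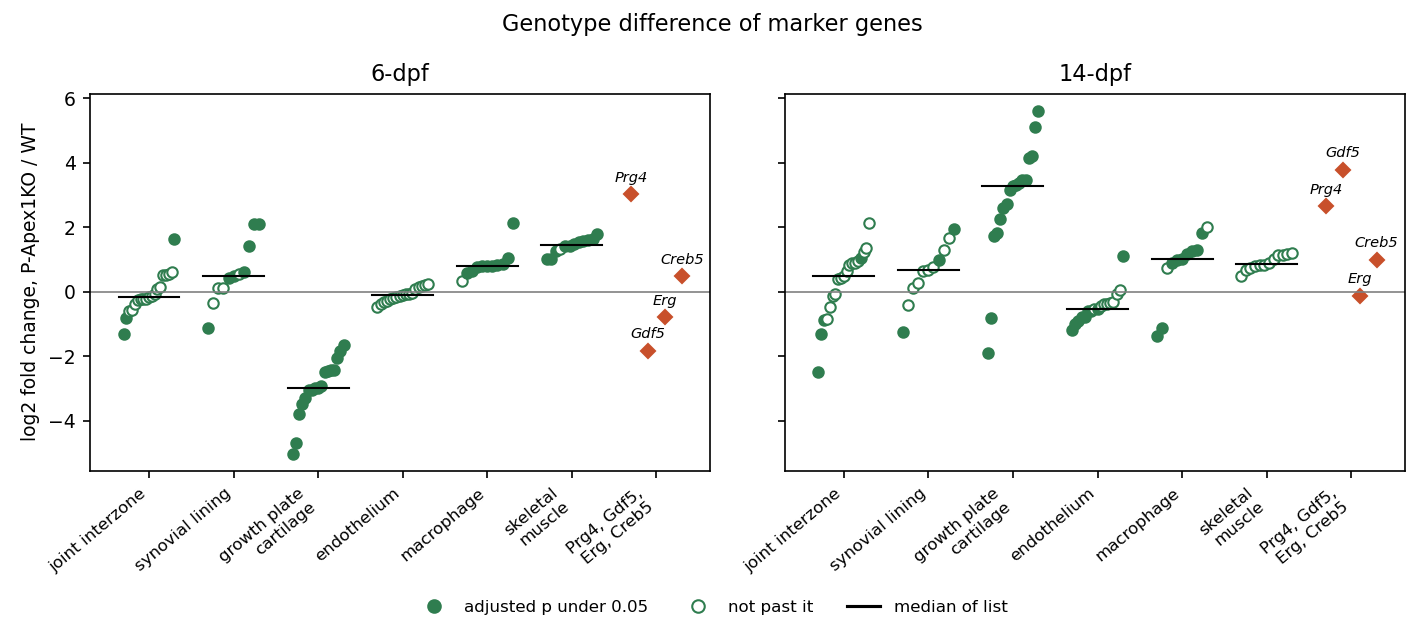
Log2 fold change of P-Apex1KO over WT for each gene of 6 marker lists and for *Prg4*, *Gdf5*, *Erg* and *Creb5* (orange diamonds, not marked by test) at 6-dpf and 14-dpf, with filled list points past an adjusted p of 0.05 and black bars for list medians. At 6-dpf cartilage genes had a median of -2.97 and muscle genes 1.46, and the high cartilage values at 14-dpf (median 3.29) come from the fit with sex, which rests on 1 WT mouse.

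Per kilobase of the main transcript, *Prg4* was the most abundant of the 4 genes at 3-dpf, at 34.8 ± 14.4 CPM per kb in WT (SD, n = 4), followed by *Erg* at 8.08 ± 0.927, *Creb5* at 3.25 ± 0.491 and *Gdf5* at 0.316 ± 0.181 CPM per kb. In WT callus at 6-dpf *Erg* led with 23.1 ± 4.49 CPM per kb (SD, n = 5), then *Gdf5* with 8.61 ± 3.65 and *Prg4* with 4.68 ± 0.847 CPM per kb, while in P-Apex1KO *Prg4* stood at 36.9 ± 30.5 and *Gdf5* at 2.49 ± 0.918 CPM per kb (SD, n = 3). *Creb5* levels depend on the length used, since its main transcript has 7.92 kb and all its annotated exons 25 kb. At 14-dpf in WT *Erg* led again, at 14.3 ± 0.948 CPM per kb (SD, n = 4), with *Creb5* at 2.51 ± 0.300, *Prg4* at 1.66 ± 0.560 and *Gdf5* at 0.736 ± 0.464 CPM per kb.

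*Prg4* ranged 183-fold over the 30 libraries, *Gdf5* 107-fold, *Creb5* 4.31-fold and *Erg* 4.21-fold. The 4 genes did not all follow each other. Across the 30 libraries, which share time points and genotypes, log2 CPM of *Gdf5* and *Erg* had a Pearson's r of 0.81, while *Prg4* had an r of -0.36 with *Gdf5*, -0.60 with *Erg* and 0.43 with *Creb5*. With the group means removed, r was between 0.19 (*Erg* and *Creb5*) and 0.45 (*Prg4* and *Gdf5*) in the 6 pairs.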

How the data were processed

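The authors depleted total RNA of callus of rRNA and beta globin transcripts, made stranded libraries, aligned the reads to mm39 with STAR 2.7.0d and counted them per gene with featureCounts. The deposited values are raw whole-number counts per gene and sample, and totals of 18334389 to 43111491 per library set the precision. *Gdf5* at 3-dpf thus rests on 9 to 46 reads, and in WT at 14-dpf on 9 to 68. The submitters' processing notes also name bcl2fastq 2.20 and DESeq2 1.32.0. Groups, sex and time came from the deposited labels. Labels of sex matched *Xist* and Y-linked counts in 30 of 30 libraries. Transcripts of the other sex stood at 6.9% of that sex's median in the male library labelled P-Apex1KO replicate 1 at 3-dpf, at 1.62 to 2.78% in 6 other libraries and below 1% in the rest, and mixing was not tested. No pair of libraries of a group agreed within sampling noise (chi-square per degree of freedom of at least 5.65). The labels do not say that mice came from separate litters, so p-values measure the spread between these mice.

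Symbols and positions came from GENCODE M39 on GRCm39, which holds 54749 of the 55416 gene IDs, and the 667 others stayed in the tests. Genes were kept by filterByExpr and scaled by TMM, and counts of each time point were fitted alone for genotype and sex with robust quasi-likelihood models in edgeR 4.0.16 (R 4.3.3). P-values of the F test were adjusted by Benjamini-Hochberg over every gene in the fit and called at 0.05. All 4 genes passed the filter at every time point. Changes between 3- and 6-dpf and between 10- and 14-dpf came from models of 4 groups with sex. 6- and 10-dpf were not compared, because the form of the sample names changes there and a library batch cannot be told apart from time. An SE was taken as the absolute log2 fold change divided by the root of F. CPM are scaled by TMM over 30 libraries, and log2 CPM use a prior count of 2. Fits were tested on simulated data. *Prg4* overlaps *Tpr*, and *Gdf5* overlaps *Gm15557*, on the opposite strand, which stranded counting keeps apart. *Erg* overlaps *Gm56622*, and *Creb5* overlaps *Gm44080* and *Gm25818*, on the same strand, which stranded counting does not separate. Promoter windows were read from GRCm39.

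The 4 genes and the 13 marker lists were chosen with earlier results of these data known. The genes named are the 4 genes, *Apex1*, from each list up to 2 genes with the largest change in each direction among those past the threshold, and the 5 genes most like each of the 4 by Pearson correlation of log2 CPM. *Atf4*, *Id3* at 6-dpf and *Nfatc1* stand outside that rule, since a count of 5 or fewer is named in full. So do *Sox9*, *Epyc* and, in the correlations with *Prg4*, *C1qa* and *C1qb*, named after their values were seen. Alternatives were DESeq2 1.42.0, no sex term, other scalings and filters, all libraries in 1 model, replicate numbers as a block and each mouse left out.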

Additional observations from a re-analysis of the deposited data

Results flagged for a closer look

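*Prg4* in WT replicate 3 at 10-dpf stood apart from its group, at 30.7 CPM against at most 2.56 CPM in the 3 other WT mice. Its gap to the nearest of them took 0.97 of the range of the group. It was the only such case among the 20 groups of at least 4 mice examined over the 4 genes, and about 1 in 20 is set apart by chance.

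The genotype difference of *Gdf5* was -1.82 at 6-dpf, with all 3 P-Apex1KO mice below all 5 WT mice, and 3.79 at 14-dpf, with all 3 P-Apex1KO mice above all 4 WT mice. The 14-dpf value rests on the only WT female, who held 9 *Gdf5* reads, and it was smaller without the sex term. The difference between these time points was not tested.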

How the results depend on the processing

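Of 312 results of the 4 genes refitted with all mice, 286 kept their direction and side of the threshold. Of 480 refitted with 1 mouse left out, 442 did. Both counts include the *Prg4* comparisons with 6-dpf, which had no test and so no side of the threshold. Those counted as kept where the direction held and the value moved by less than the spread within groups. Most of the results were not past the threshold to begin with, so keeping their side says little. The called differences of *Prg4* at 14-dpf and *Erg* at 6-dpf lost their call in several fits with 1 mouse left out. Replicate numbers did not pair the mice (the deviations of WT and P-Apex1KO mice of the same number correlated from -0.251 to 0.392, and the labels name no shared litter). With the replicate number as a block in place of sex, the genotype difference of *Erg* at 6-dpf was -0.63 (adjusted p = 0.0840), of *Gdf5* at 14-dpf 2.29 (adjusted p = 0.0571) and of *Creb5* at 14-dpf 0.93 (adjusted p = 0.0313). With the block the WT change from 10- to 14-dpf was 0.051 for *Prg4*, -2.14 for *Gdf5* (adjusted p = 0.0553) and 0.0013 for *Apex1*. The block gave 1 called gene at 3-dpf, 677 at 6-dpf, 90 for the change of the genotype difference from 3- to 6-dpf, and 1621 and 656 for the changes from 3- to 6-dpf and 10- to 14-dpf in P-Apex1KO. Causes of these shifts were not tested.

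With DESeq2's Wald test *Gdf5* at 10-dpf was 1.27 (adjusted p = 0.00151), the change of the *Erg* difference from 3- to 6-dpf was -0.86, the WT change of *Erg* from 10- to 14-dpf was -0.38 (adjusted p = 0.0498) and the P-Apex1KO change of *Creb5* was 1.19 (adjusted p = 0.0201). DESeq2 called 85 genes at 3-dpf, 2187 at 10-dpf (1221 in edgeR), 718 for the change of the genotype difference from 3- to 6-dpf (267) and 465 for that from 10- to 14-dpf (86), and 550 for the P-Apex1KO change from 10- to 14-dpf (51). Scaled by library size alone *Erg* was -0.0067, 0.0053 and 0.15 at 3-, 10- and 14-dpf, *Creb5* was 0.67 at 6-dpf, the WT change of *Creb5* was -0.64 from 3- to 6-dpf (adjusted p = 0.0127) and -0.031 from 10- to 14-dpf, and that of *Erg* from 10- to 14-dpf was -0.43 (adjusted p = 0.0309). It called 3588 genes at 6-dpf (2212) and 433 and 8 for the changes of the genotype difference. The near-zero change of the *Erg* difference from 10- to 14-dpf became 0.018 with DESeq2 and with its size factors, 0.15 with library size alone and 0.012 with at least 10 counts in every sample. With no sex term *Creb5* at 14-dpf was 1.09, and 749, 6849 and 672 genes were called at 10-dpf, at 14-dpf (2289) and for the P-Apex1KO change from 10- to 14-dpf. Without a filter *Gdf5* at 6-dpf was -1.83 (adjusted p = 0.0755), *Prg4* at 14-dpf 2.66 (adjusted p = 0.192) and the change of the *Erg* difference from 3- to 6-dpf -0.84, with 4 genes called at 3-dpf, 207 for the change of the genotype difference from 10- to 14-dpf and 217 for the P-Apex1KO change. With all libraries in 1 model *Creb5* at 14-dpf was 1.20 (adjusted p = 0.00298) and the change of the *Erg* difference -0.87, with 38, 6185, 410 and 509 genes called at 3-dpf, at 14-dpf, for the change of the genotype difference from 3- to 6-dpf and for the P-Apex1KO change from 10- to 14-dpf. *Gdf5* could not be given with at least 10 counts in every sample where a library held fewer.

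With 1 mouse left out, genotype differences ranged at 3-dpf from -0.026 to 0.14 for *Erg* and -0.25 to 0.063 for *Creb5*, at 6-dpf from -0.92 to -0.70 for *Erg*, at 10-dpf from 0.41 to 2.61 for *Prg4*, 0.84 to 1.74 for *Gdf5* and -0.22 to 0.13 for *Erg*, and at 14-dpf from 1.92 to 2.94 for *Prg4* and 0.71 to 1.25 for *Creb5*. The change of the genotype difference from 3- to 6-dpf ranged from 1.502 to 3.02 for *Prg4* and -0.97 to -0.74 for *Erg*, and from 10- to 14-dpf from -0.29 to 0.18 for *Erg*. Changes in P-Apex1KO from 3- to 6-dpf ranged from -1.31 to 0.14 for *Prg4* and 0.56 to 0.74 for *Erg*, and from 10- to 14-dpf from -0.89 to 0.047 for *Gdf5*. WT changes from 10- to 14-dpf ranged from -0.78 to 1.31 for *Prg4*, -0.51 to -0.34 for *Erg* and -0.26 to 0.31 for *Creb5*. Genes called ranged from 0 to 10 at 3-dpf, 890 to 2359 at 6-dpf, 42 to 1824 at 10-dpf and 1206 to 6181 at 14-dpf, from 104 to 450 and 2 to 206 for the changes of the genotype difference, from 1224 to 3258 and 0 to 252 for the changes in P-Apex1KO, and from 1162 to 2760 for the WT change from 10- to 14-dpf.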
